A study of Mus musculus with 51 samples.

Results

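Distal open sites in chromatin state 8 were regions of open chromatin away from gene starts that lay in 1 of the 11 states of a chromatin map of mouse male germ cells. They were taken from the 81887 regions of the ATAC-seq table of C57BL/6J and knock-in germ cells by position alone. A region was a member if it was autosomal, lay over 1 kb from every annotated transcription start, overlapped neither of the DMC1 peak lists nor the HELLS peak list, and had its midpoint in state 8. In all, 950 regions met the rule, out of 49831 distal regions that met the same conditions in any state. Of the 1055 autosomal distal regions with a midpoint in state 8, the rule left out 105 that overlapped a DMC1 or HELLS peak, 94 of them a HELLS peak. ATAC-seq measures how readily a transposase cuts DNA, and so how open the chromatin is.

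The germ cells were enriched from testes of male mice aged 12 to 14 days, when the first wave of germ cells is in meiotic prophase. ATAC-seq came from B6-Prdm9CAST-KI mice (KI, n = 2), which carry the CAST allele of Prdm9 on the C57BL/6J background, from C57BL/6J mice (B6, n = 2), from Hells conditional knockouts (CKO, n = 3) and Hells wild type (wt, n = 2), and from (B6xCAST) F1 hybrids (n = 2). H3K9ac ChIP-seq came from KI (n = 2), Spo11/Spo11 mutants (n = 1), B6 (n = 3) and the F1 (n = 1), and H3K4me3 ChIP-seq from Hells CKO (n = 3), Hells wt (n = 1), Spo11/Spo11 (n = 2) and Spo11/+ (n = 1). The DMC1 lists came from testis of mice aged 6 weeks, Hells CKO and Hells het, and the HELLS list from KI testis at 12 to 14 days. The labels do not name the Cre driver of the Hells knockout or the Prdm9 allele of the Hells and Spo11 mice, and do not say whether libraries of a group are separate animals. The p-values therefore cover the spread among these libraries, which may be technical. Library numbers in the labels follow the strain in the KI and B6 ATAC libraries and in the KI and B6 H3K9ac libraries, so batch and strain cannot be told apart there.

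PRDM9 is a zinc-finger histone methyltransferase of meiotic prophase that binds a DNA sequence set by its allele and marks the nucleosomes beside it with H3K4me3, which places the DNA breaks of meiotic recombination. HELLS is a SNF2-family chromatin remodeller. SPO11 cuts the DNA, and DMC1 coats the cut ends. H3K9ac is an acetylation of histone H3 found at active promoters and open regulatory sites. CTCF is a zinc-finger protein that binds DNA in most tissues and bounds chromatin loops.

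State 8 covered 122.8 Mb of the autosomes, or 4.98%, in 34530 segments with a median length of 2200 bp. The map was built from histone libraries of B6 germ cells, which the labels give as H3K4me1, H3K27me3, H3K9ac, H3K27ac, H2B120ac and H2A.Z, and the sources used here do not give the marks that define state 8. Over the 39 Hox cluster genes with 2 kb on either side, a mean of 36.5% of each stretch lay in state 8 and 47.3% in state 2. The share in state 8 compares with 4.87% over all 20807 autosomal protein-coding genes and 1.81% over 51 Rpl genes, which encode proteins of the large ribosomal subunit. For state 2 the shares over the same 2 sets were 2.72% and 2.38%, so Hox genes stood out in both states. Over the marker gene lists used below, the share in state 8 ran from 0.0% for Sertoli genes to 24.7% for 10 blood and macrophage genes. It was 9.51% over 20 spermatogonial genes. Hox genes set positional identity along the body axis and are textbook targets of Polycomb repression and its mark H3K27me3 in cells that do not use them. Which marks the members themselves carry was not measured in the count tables beyond H3K9ac and H3K4me3.

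Open sites were sparse in state 8. It held 7.74 distal sites per Mb, against 237 per Mb in state 2, 157 in state 3 and 5.61 in state 11. Members lay in segments with a median length of 7000 bp, and 736 of the 950 lay wholly within state 8. Their median width was 467 bp (quartiles 402 and 587.75), against 555 bp over the 48881 distal sites of the other states. Of the members, 537 were intergenic, 361 intronic and 52 overlapped an exon, and the median distance to the nearest transcription start was 15558 bp, against 12466 bp for distal sites of the other states. Their bases were 49.3% G or C (median) and they held 11.1 CpG per kb, against 47.2% and 12.5 per kb in the other states. The members had 684 nearest protein-coding genes, of which 525 had 1 member and 61 had 3 or more.

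The members fell into 2 kinds that the results below keep apart, the 349 whose ATAC signal was higher in KI than in B6 and the other 601. Sequence windows of 300 bases at the centre of some members of each kind are given as examples, and do not show how often a motif occurs. They were read from GRCm38 (mm10). The first 2 belong to members that were higher in KI, near Kcnk1, which encodes a potassium channel, and in an intron of Ptprn2, which encodes a protein of secretory granules. The next 2 belong to members called in neither direction, those with the highest mean ATAC level among those with a match to the CTCF core motif, in an intron of Camta1, which encodes a calmodulin-binding transcription activator, and near Bhlhe23, which encodes a basic helix-loop-helix factor. Capitals mark a match to the CTCF core motif (14 bases), to the gapped pattern CACANNNNNAGTC (13 bases) or to the word GTCACA, on either strand.
Kcnk1 site, higher in KI, chr8:126062698-126062997, plus strand: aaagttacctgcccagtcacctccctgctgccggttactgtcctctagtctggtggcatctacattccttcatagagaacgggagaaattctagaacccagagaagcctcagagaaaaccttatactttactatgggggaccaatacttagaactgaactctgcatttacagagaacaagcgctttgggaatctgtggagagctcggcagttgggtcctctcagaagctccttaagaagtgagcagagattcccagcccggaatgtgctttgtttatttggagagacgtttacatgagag
Ptprn2 intron site, higher in KI, chr12:117245361-117245660, plus strand: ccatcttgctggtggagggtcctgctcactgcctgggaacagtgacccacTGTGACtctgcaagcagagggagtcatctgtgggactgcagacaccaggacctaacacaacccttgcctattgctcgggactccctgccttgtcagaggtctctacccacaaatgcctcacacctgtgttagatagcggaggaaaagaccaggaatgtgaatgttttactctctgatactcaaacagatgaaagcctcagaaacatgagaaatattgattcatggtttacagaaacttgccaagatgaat
Camta1 intron site, not called, chr4:151157006-151157305, plus strand: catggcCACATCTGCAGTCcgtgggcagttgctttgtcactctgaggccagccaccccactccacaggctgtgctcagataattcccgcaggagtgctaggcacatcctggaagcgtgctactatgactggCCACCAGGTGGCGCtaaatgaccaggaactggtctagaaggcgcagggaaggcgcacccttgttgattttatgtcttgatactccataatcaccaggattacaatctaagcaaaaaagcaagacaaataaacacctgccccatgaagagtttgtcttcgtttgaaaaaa
Bhlhe23 site, not called, chr2:180779523-180779822, plus strand: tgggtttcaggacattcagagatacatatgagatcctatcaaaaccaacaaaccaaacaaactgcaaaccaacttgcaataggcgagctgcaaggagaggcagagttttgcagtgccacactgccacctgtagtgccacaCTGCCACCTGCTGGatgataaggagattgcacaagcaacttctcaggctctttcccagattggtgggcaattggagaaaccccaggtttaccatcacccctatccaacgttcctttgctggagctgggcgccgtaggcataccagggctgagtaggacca

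The CTCF core match of the Camta1 window reads CCACCAGGTGGCGC on the plus strand, and that of the Bhlhe23 window reads CCAGCAGGTGGCAG on the minus strand. The Camta1 window also held the gapped pattern. The Kcnk1 window held none of the 3.

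ATAC levels are given in CPM, the reads of a region scaled to the library's reads in all regions of the table, after adjustment of that total by the TMM factor. In KI the median level over the 950 members was 3.62 CPM in library 1 and 3.51 CPM in library 2, and in B6 it was 2.07 CPM in library 1 and 1.89 CPM in library 2. All libraries had reads at all 950 members, with levels of 0.859 to 37.6 CPM in KI 1, 0.953 to 31.7 CPM in KI 2, 0.164 to 20.2 CPM in B6 1 and 0.172 to 15.3 CPM in B6 2. Both KI libraries were above both B6 libraries at 534 members (56.2%), against 24.2% of all 81887 regions, and both were below at 8 members (0.842%), against 16.9% of all regions.

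Of the 950 members, 349 (36.7%) were higher in KI and 0 were lower (edgeR quasi-likelihood test, Benjamini-Hochberg adjusted p under 0.05 over the whole table). Over all 81887 regions, 7.14% were called higher and 2.27% lower. These shares keep in promoters and regions at DMC1 or HELLS peaks, which the rule left out. Of the 105 distal state 8 regions left out for such a peak, 99 were higher in KI and 0 lower. Among distal sites of the other states that met the same conditions, lower calls were rare too. They numbered 17 of 48881, of which 7.34% were higher. The exact 95% binomial interval of the share of members is 33.7% to 39.9%, which covers counting error only. At an unadjusted p under 0.05, 375 members passed, and DESeq2 called 347, all higher. The median log2 fold change of KI over B6 was 0.40 over the members (quartiles 0.12 and 2.40), against 0.02 over all regions. Without B6 library 1, 13 members were lower in KI, 449 were higher and the median was 0.68, with 8439 lower and 10370 higher in the whole table.

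Most differences lay at either end of the range. The log2 fold change lay between −0.5 and 0.5 at 531 members and over 1.5 at 340 members, all of them called. Of the 79 members between 0.5 and 1.5, 9 were called. Among the 349 members that were higher, the median log2 fold change was 2.63 (range 0.99 to 4.6), 307 exceeded 2 and 91 exceeded 3. Their median level was 5.62 ± 0.262 CPM in KI and 0.95 ± 0.00488 CPM in B6 (SD of the library medians, n = 2 each). At the other 601 members it was 2.98 ± 0.0382 CPM in KI and 2.55 ± 0.159 CPM in B6, where the log2 fold change had a median of 0.19 and 26 passed at an unadjusted p under 0.05. Since the call split the 2 kinds, these levels describe the split and were not tested.

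**Figure D1:**
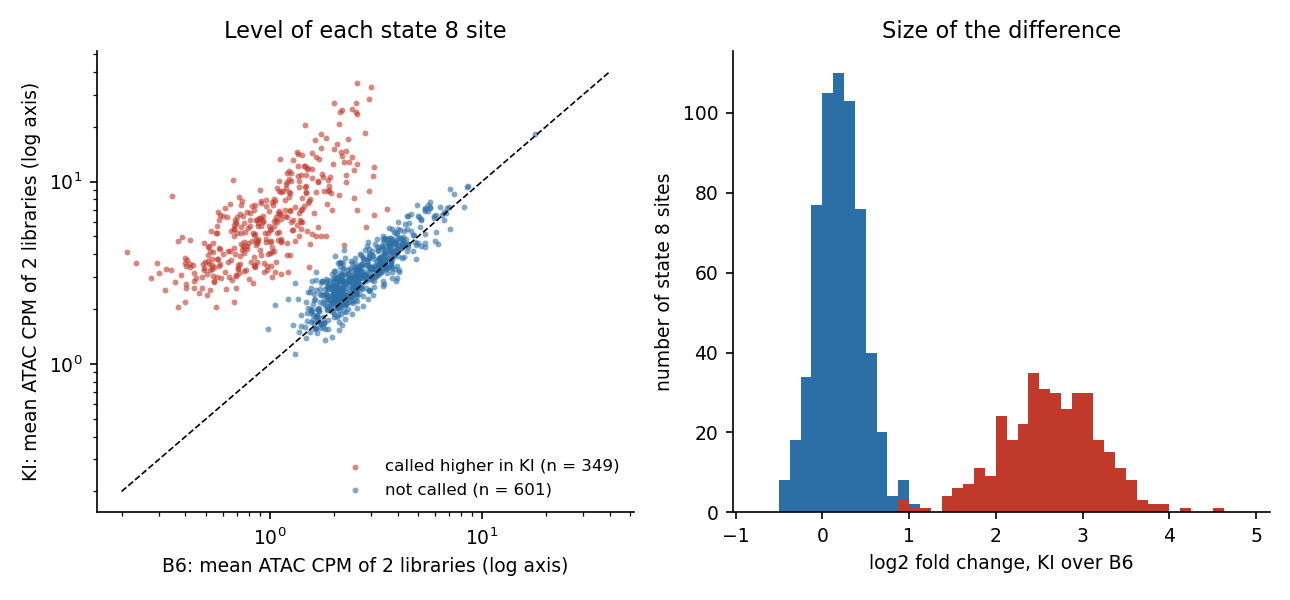
Left, mean ATAC level of each of the 950 members in KI (2 libraries, vertical log axis) and in B6 (2 libraries, horizontal log axis), in CPM, with equal levels on the dashed line. Right, stacked number of members by log2 fold change of KI over B6. The 349 members called higher in KI (red) form a cloud apart from the 601 others (blue), which lie along the line of equal levels.

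The member with the highest mean ATAC level was an intergenic site of 1766 bp at chr8:126061965-126063730, 66529 bp from Kcnk1, the nearest protein-coding gene, and 1441 bp from the nearest transcription start of any gene. It had 37.6 and 31.7 CPM in the KI libraries, against 2.40 and 2.75 CPM in the B6 libraries. Both KI libraries were far above both B6 libraries, and its log2 fold change was 3.75 (SE 0.189, edgeR quasi-likelihood adjusted p = 3.08e-07), the lowest p among the members. The second site, 1568 bp at chr3:153742624-153744191 and 17450 bp from St6galnac3, a sialyltransferase gene, had 34.5 and 31.6 CPM in the KI libraries, against 2.73 and 3.24 CPM in the B6 libraries. Its log2 fold change was 3.47 (SE 0.183).

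The third was the exception among the 5 highest. At chr13:120037462-120037959, in an intron of the predicted gene Gm21188, the levels were 18.8 and 17.5 CPM in the KI libraries and 20.2 and 15.3 CPM in the B6 libraries. The groups overlapped (log2 fold change 0.03, SE 0.174). It was also the 1 member of the 5 with no region in the H3K9ac table or the F1 table.

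The fourth lay between genes on chromosome 18 (chr18:81520018-81521537), 533247 bp from Sall3, a zinc-finger transcription factor gene. It had 31.5 and 25.1 CPM in the KI libraries, against 2.56 and 3.30 CPM in the B6 libraries (log2 fold change 3.27, SE 0.206). The fifth was the Ptprn2 intron site (chr12:117244846-117246176), which overlaps the predicted gene Gm5441 as well and whose nearest protein-coding start is that of Rapgef5. It had 28.2 and 26.0 CPM in the KI libraries, against 2.53 and 2.58 CPM in the B6 libraries (log2 fold change 3.40, SE 0.185). Of the 5 members with the lowest p, 3 are among these. The other two were an intronic site of Slc22a18, a transporter gene, nearest to Phlda2 (chr7:143494685-143495873) and an intergenic site 140856 bp from Ajap1, which encodes an adherens junction protein (chr4:153623667-153625207). The Slc22a18 site had 25.4 and 22.5 CPM in KI against 2.33 and 1.95 CPM in B6, and the Ajap1 site had 25.6 and 23.9 CPM in KI against 2.47 and 1.89 CPM in B6. All 5 had both KI libraries above both B6 libraries, with adjusted p values of 3.08e-07 to 3.38e-07 (edgeR quasi-likelihood test).

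Some members that were higher in KI shared their nearest gene with members that were not. The members higher in KI had 283 nearest protein-coding genes, the others had 493, and 92 genes had both. Of all 684 nearest genes, 525 had 1 member and could not have both. Zmiz1, which encodes a transcriptional coregulator, was the nearest gene of 9 members, the highest number, of which 2 were higher in KI. Cdh4, a cadherin gene, and Rbfox3, a neuronal splicing regulator gene, had 8 each with 3 higher, and Camk1g, a kinase gene, had 8 with 2 higher. Of the genes with 6 members, Sall3 had 5 higher, Prdm16, a transcription factor gene, had 3 and Kalrn, a gene of a guanine nucleotide exchange factor, had 2. Of those with 5, Runx1, a transcription factor of blood formation, had 4 higher, Rps6kc1, a gene of the ribosomal S6 kinase family, had 3 and Celf4, an RNA-binding protein gene, had 0. These are all the genes with 5 or more members, a limit set after the values were seen. In Rbfox3 the member at chr11:118698171-118699429 had 29.5 and 24.4 CPM in KI against 2.60 and 1.41 CPM in B6, while the member at chr11:118573569-118573952, which matched the CTCF core, had 3.47 and 3.40 CPM in KI against 3.25 and 1.98 CPM in B6.

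Members near marker genes were few, as were other distal sites near them. Of the 20 spermatogonial stem and differentiation genes, Gfra1, a receptor subunit of stem spermatogonia, and Zbtb16, a transcription factor of the same cells, were nearest to 4 members, 2 of them higher in KI, against 97 of the 48881 distal sites of the other states. In Gfra1 introns the member at chr19:58246384-58247445 had 14.5 and 12.0 CPM in KI against 1.97 and 1.43 CPM in B6 (log2 fold change 2.97, SE 0.245, edgeR quasi-likelihood adjusted p = 2.54e-06), and the one at chr19:58285001-58285474 had 3.69 and 3.46 CPM in KI against 0.756 and 1.12 CPM in B6 (1.92, SE 0.332, adjusted p = 0.00115). The Zbtb16 intron member at chr9:48775566-48775985 had 2.97 and 2.92 CPM in KI against 1.45 and 2.55 CPM in B6 and did not pass. Genes of meiotic prophase (26), of pachytene and spermatid stages (20) and of Sertoli cells (18) were nearest to 0 members, and to 20, 25 and 149 of the 48881 distal sites of the other states, so the absence says little about the members. Members near somatic genes were 1 near Nr2f2, of Leydig cells, 2 near C1qa, of macrophages, 1 near Vwf, of endothelium, and 1 near Tcf21, of stroma. In the other states, 35 of the 48881 distal sites were nearest to genes of the Leydig list and 20 to the blood and macrophage list. Those nearest to the peritubular, stromal and endothelial list numbered 84. The Tcf21 member (chr10:22849126-22849664) had 4.26 and 3.05 CPM in KI against 0.559 and 0.459 CPM in B6 (log2 fold change 2.84, SE 0.367, edgeR quasi-likelihood adjusted p = 9.82e-05). The other members near somatic genes did not pass.

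As a check of the cell type, open promoter regions were counted at marker genes. They were found at 11 of 12 spermatogonial, 7 of 8 meiotic, 6 of 8 Sertoli, 2 of 5 Leydig, 3 of 3 peritubular, 2 of 4 endothelial and 0 of 3 macrophage markers. The median promoter level over the Sertoli list was 26.3 CPM in KI and 27.2 CPM in B6, and that of the meiotic list was 28.5 CPM in KI and 31.9 CPM in B6. A marker with no region at its promoter has no measured level and was entered as 0 in these medians, which was so for Nanos2, Stag3, Inha, Rhox5, Cyp11a1, Hsd3b1, Insl3, Pecam1, Cdh5, Ptprc, Csf1r and Adgre1. In bulk samples, fewer cells of a type and less open DNA per cell cannot be told apart, and the part of somatic cells in the results was not tested. Reads counted in regions numbered 27952728 and 30119498 in the KI ATAC libraries and 32066671 and 34572929 in the B6 ATAC libraries. They ranged over 6416704 to 11352108 in Hells ATAC, 13195275 to 30233934 in H3K9ac and 13321006 to 42007820 in H3K4me3.

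Set beside distal sites of the other states, members belonged to a group of states with a high share of sites higher in KI. The share was 36.7% in state 8, 33.6% in state 6, 45.2% in state 9, 45.5% in state 10 and 33.1% in state 11, and it was between 0.306% and 6.00% in states 1 to 5 and 7. Per Mb of the state, however, the number was 2.84 in state 8, 2.72 in state 6, 1.86 in state 11, 0.843 in state 9 and 0.32 in state 10, it was 1.83 to 2.20 in states 2 to 5, and it was 0.54 in state 1 and 0.626 in state 7. States 2 to 4, where the share was lowest after state 1, held 89.4 to 237 distal sites per Mb. No test was made between states, because sites of the same libraries are not replicates.

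**Figure D2:**
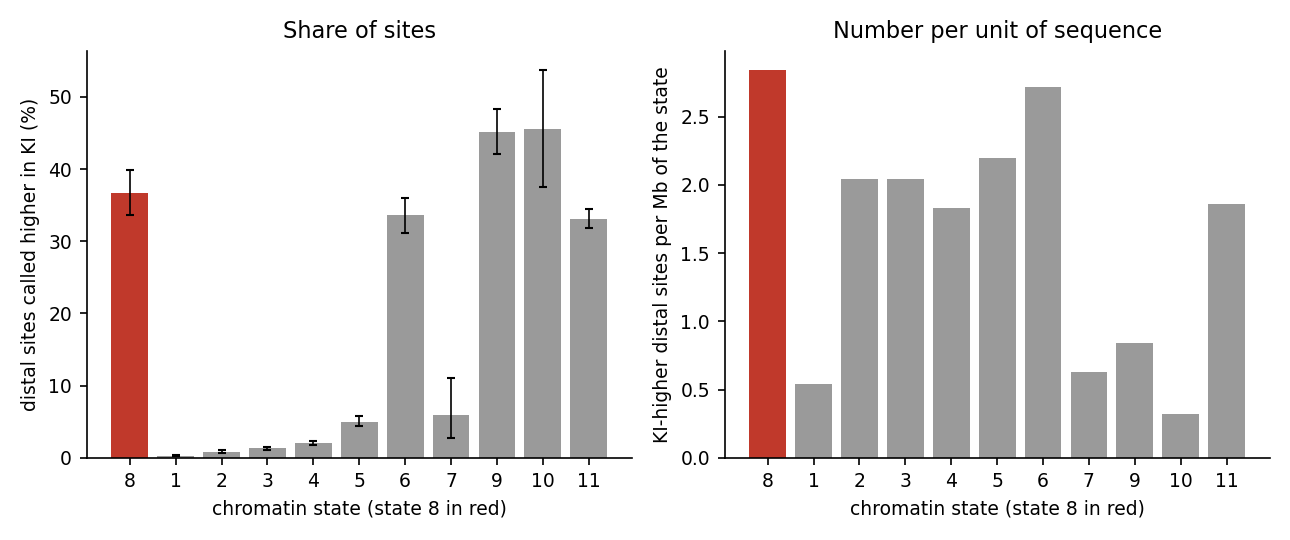
Left, share of distal sites called higher in KI in each chromatin state, with exact 95% binomial intervals (counting error only). Right, the number of such sites per Mb of autosomal sequence in the state. State 8 (red) stands at 36.7% and 2.84 per Mb, and state 2 at 0.861% and 2.04 per Mb.

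Within state 8 the shares varied less with segment length and distance to a start than with the width of the site. In 4 equal groups of the members by segment length, 42.4%, 32.1%, 34.6% and 37.8% were higher in KI, from the shortest segments (200 to 3600 bp) to the longest (13200 to 88000 bp). In 4 groups by distance to the nearest transcription start the shares were 37.8%, 28.3%, 40.1% and 40.8%. By width they were 24.4%, 18.6%, 32.9% and 71.0%, with the last for members of 588 to 1766 bp. Members higher in KI had a median width of 582 bp, against 437 bp for the others. Next to the distance limit of the rule, 18 of 58 members between 1 and 2 kb from a start were higher in KI (31.0%), with medians of 4.35 CPM in KI and 2.58 CPM in B6. Just outside it, 20 of 48 state 8 regions within 1 kb of a start but not on one were higher in KI (41.7%), with 3.94 CPM in KI and 2.18 CPM in B6.

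Sequence differed between the 2 kinds of member. The CTCF core motif is given by its name alone, since it allows more than 1 base at several positions. It was found on either strand in 0 of the 349 windows of members higher in KI, which allows a share of up to 0.86%, and in 82 of 601 windows of the others (13.6%). It was found in 4.82% of the distal windows of the other states and in 3.66% of all 81887 windows. In the other states, too, it was rarer at distal sites higher in KI, with 0.334% against 5.17% of the rest. The matches lay near the centre of the window, with a median distance of 20.5 bases, and 70 of 82 were within 50 bases. The 82 members with a match had median levels of 3.28 CPM in KI and 2.85 CPM in B6 and a median log2 fold change of 0.21 (range −0.40 to 0.91). The 519 other members with no match had median levels in KI of 2.95 CPM, against 2.51 CPM in B6. The Camta1 site shown above (chr4:151156803-151157508) had 9.70 and 8.51 CPM in KI against 8.38 and 5.74 CPM in B6, and the Bhlhe23 site (chr2:180779276-180780069) had 7.05 and 7.43 CPM in KI against 8.78 and 5.19 CPM in B6. Another, in an intron of Phactr3 (chr2:178137434-178138141), a phosphatase and actin regulator gene, had 7.88 and 6.99 CPM in KI against 6.51 and 4.65 CPM in B6. Both strains overlapped at the Bhlhe23 site, and none of these 3 passed (edgeR quasi-likelihood adjusted p of 0.601, 0.97 and 0.537), although the Camta1 and Phactr3 sites passed without B6 library 1 (0.00186 and 0.00502).

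A pattern was then sought outside state 8 and looked up in the members. Among pairs of 4-letter blocks with 0 to 8 free bases between them, CACANNNNNAGTC had the largest gain in share in the central 200 bases of 3589 distal sites higher in KI over 5528 distal sites of states 6, 9, 10 and 11 that were not, and was found in 226 of the higher sites and 41 of the rest. In the windows of the members it was found in 32 of 349 that were higher in KI (9.17%) and 10 of the other 601 (1.66%), against 1.74% of all windows. In the same windows of the other states, where it was chosen, the shares were 7.80% and 1.34%. Its matches were less central than those of the CTCF core. At the 32 members higher in KI the median distance from the centre was 60 bases, and 14 were within 50 bases. The 6-letter word with the largest gain, GTCACA, was found in 113 of 349 (32.4%) and 112 of 601 (18.6%), against 17.1% of all windows, and its last 4 letters are the first block of the gapped pattern. In the other states, where the word was chosen, the shares were 35.1% and 17.6%. At the 113 members its median distance from the centre was 57 bases, and 50 were within 50 bases. The Camta1 member, called in neither direction, held the gapped pattern too. Matches at 3 members that held it and were higher in KI are shown, 5′ to 3′ on the strand given, with all 13 letters in capitals.
Slc22a18 intron site, chr7:143495237-143495249, minus strand: CACATGCCCAGTC
Tle3 site, chr9:61350223-61350235, minus strand: CACATTCCCAGTC
Ssx2ip site, chr3:146340678-146340690, plus strand: CACAGCAGCAGTC

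The means at these 3 sites were 23.9 CPM in KI against 2.14 CPM in B6 at the Slc22a18 site, 16.1 CPM in KI against 2.08 CPM in B6 at the Tle3 site, and 10.6 CPM in KI against 1.91 CPM in B6 at the Ssx2ip site. Tle3 encodes a transcriptional corepressor. A match is a description of the letters, and neither it nor its absence says whether a protein bound there.

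Of the other motifs searched on both strands, the E-box CAGCTG was found in 15.2% of the windows of members higher in KI and 28.5% of the others, against 20.8% of all windows. The GC box GGGCGG was found in 2.87% and 8.15%, against 19.4% of all, which include promoters, and 9.59% of distal windows of the other states. Distal sites of the other states that were higher in KI held this E-box at 14.9%, against 22.5% of the rest. For the GC box the shares there were 3.01% and 10.1%. Both differences were thus also found outside state 8. The RUNX motif TGTGGTT went the other way, with 12.3% and 4.83%, against 5.60% of all, and the DMRT motif ACANTGT was found in 11.7% and 15.3%, against 15% of all. The AP-1 motif TGANTCA stood at 12.6% and 10.6%, against 9.08% of all, the MYB motif AACNGCC at 9.74% and 11.0%, against 12.1%, and the NF-Y motif CCAAT at 36.7% and 31.6%, against 30.5%. The SOX motif ACAATGG was found in 6.02% and 2.83%, against 4.11% of all, and the E-box CACGTG in 5.44% and 4.16%, against 5.79%. The NRF1 motif GCGCATGCG was found at 0 members, and 8 others in under 4% of either kind (CRE TGACGTCA, ETS CCGGAAG, YY1 AAGATGGCG, RFX GTTGCCATG, NR5A CAAGGTCA, FOX TGTTTAC, the GATA factors’ AGATAAG and OCT ATGCAAAT), of which the share of all windows was 0.669% to 5.01%. No test was run on these shares.

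**Figure D3:**
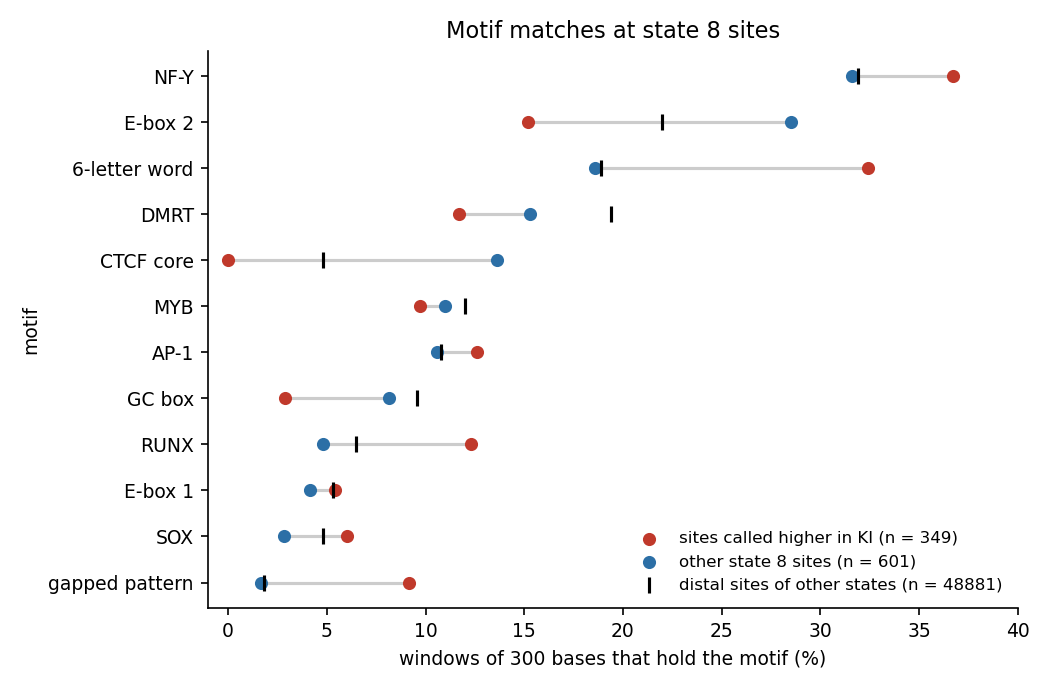
Share of 300-base windows that hold a match, on either strand, for motifs found in at least 4% of either kind of member, for members called higher in KI (red), other members (blue) and distal sites of the other states (black marks). E-box 1 is the palindrome with CG at its centre and E-box 2 the one with GC, the gapped pattern and the 6-letter word were chosen on distal sites of other states, and the CTCF core stands at 0% in members higher in KI and 13.6% in the others.

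The 2 kinds of member also differed in which other tables had a region there. An overlap of at least 1 bp counted. In the table of H3K9ac counts, 344 of 349 members higher in KI had a region (98.6%), against 60 of the other 601 (9.98%). In the F1 table the numbers were 338 of 349 (96.8%) against 47 of 601 (7.82%). In the Hells ATAC table the order was turned, with 10 of 349 (2.87%) against 425 of 601 (70.7%). In the H3K4me3 table there were 6 of 349 (1.72%) against 52 of 601 (8.65%). Among distal sites of the other states that were not higher in KI, 66.0% had a region in the H3K9ac table and 47.8% in the H3K4me3 table, so the other members were sparse in both. Distal sites of the other states that were higher in KI had a region in the H3K9ac table at 96.7%, in the F1 table at 95.8%, in the Hells ATAC table at 8.92% and in the H3K4me3 table at 4.76%, close to the members higher in KI. Which libraries were used to call the regions of each table is not given in the sources used here, and a region absent from a table has no value there.

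Where members had an H3K9ac region, H3K9ac was mostly higher in KI, and 344 of these members were higher in KI by ATAC. The 404 members with a region overlapped 398 regions, of which 323 (81.2%) were higher in KI and 0 lower, against 12.1% higher and 0.208% lower of all 91909 regions (edgeR quasi-likelihood test, adjusted p under 0.05). The labels list B6 libraries 1 and 3 for the chromatin map, so these counts are a description. Most of the 398 regions, 339, lay at members picked for their higher ATAC signal in KI. Members without a region have no value, and which libraries called the regions is not given. The 81.2% therefore does not describe the members at large. The median log2 fold change was 4.14 over the 398 regions, against −0.07 over all regions. Of the 398, 22 themselves came within 1 kb of a transcription start or overlapped a DMC1 or HELLS peak. At the 339 regions of members higher in KI by ATAC, 313 were higher, and the medians were 17.2 and 18.8 CPM in the KI libraries, 1.91 CPM in the Spo11/Spo11 library, and 0.452, 2.08 and 0.522 CPM in the B6 libraries. Both KI libraries were well above all others, and B6 library 2 was closer to Spo11/Spo11 than to the other B6 libraries. At the 60 regions of the other members, 1 of which also overlapped a member of the first kind, 11 were higher and the median log2 fold change was 0.00, with 3.03 and 3.15 CPM in KI, 2.33 CPM in Spo11/Spo11, and 1.79, 2.20 and 2.02 CPM in B6.

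The counts rested on single libraries more than the sizes did. Without either KI library 0 regions of the whole table were called, and without B6 library 3 the 323 became 59. Without B6 library 2 there were 358 higher and 9 lower, with 26360 higher and 24586 lower in the whole table. With B6 library 2 alone, which the labels do not list for the chromatin map, 351 of 398 were higher, and the median was 3.10. This alternative was chosen after seeing the data. The median log2 fold change was 3.78 to 5.01 when any 1 library was left out.

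The H3K9ac region with the lowest p lay at chr13:98368457-98370358, over an intergenic member 14772 bp from Foxd1, a forkhead transcription factor gene. It had 19.4 and 22.3 CPM in the KI libraries, 1.07 CPM in Spo11/Spo11, and 0.677, 0.882 and 0.815 CPM in the B6 libraries (log2 fold change 4.72, SE 0.212, edgeR quasi-likelihood adjusted p = 0.0045). The next lay near Gm26897 (chr5:111629444-111631025), near Sulf2, a sulfatase gene (chr2:166195652-166198045), in an intron of Elovl6, a fatty acid elongase gene (chr3:129581629-129583772), and in an intron of Adam11 (chr11:102762814-102765301), with log2 fold changes of 4.91, 3.94, 3.83 and 3.84. The Adam11 H3K9ac region itself came within 628 bp of a transcription start. All 5 overlapped members that were higher in KI by ATAC. At the Kcnk1 site H3K9ac was 37.6 and 40.7 CPM in KI, 2.06 CPM in Spo11/Spo11, and 1.42, 2.83 and 1.37 CPM in B6. At the Ajap1 site it was 50.1 and 58.0 CPM in KI, 2.60 CPM in Spo11/Spo11, and 0.484, 1.83 and 0.62 CPM in B6.

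**Figure D4:**
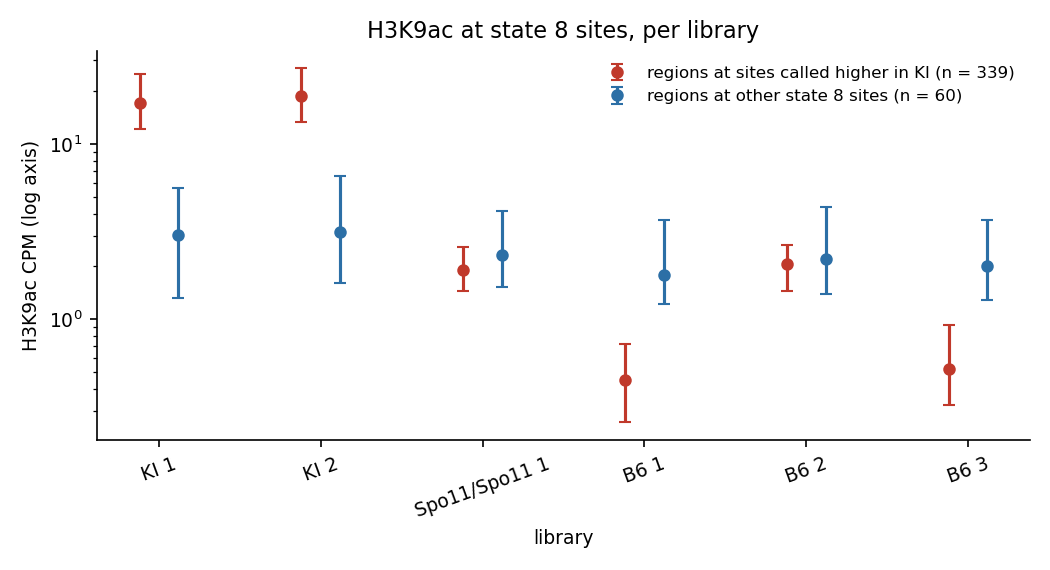
Median H3K9ac level in CPM (log axis) with quartiles over the regions at members called higher in KI by ATAC (red, 339 regions) and at the other members (blue, 60 regions) in each library. The red medians are 17.2 and 18.8 CPM in KI and 0.452 to 2.08 CPM in the other libraries, while the blue medians lie between 1.79 and 3.15 CPM in all 6 libraries.

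Between Spo11/Spo11 and B6, H3K9ac at the members was not called different in either direction, with 0 of 398 regions higher and 0 lower, and 0.0% of all regions in either direction (edgeR quasi-likelihood test). At an unadjusted p under 0.05, 11 of 398 regions passed, and DESeq2 called 0 of them. The median log2 fold change was 0.93, against 0.01 over all regions. The fit has 1 mutant library and its outcome depended on B6 library 2, since without that library 293 of 398 regions were higher in Spo11/Spo11, 3 were lower and the median was 1.76, with 21202 higher and 11639 lower in the whole table. With B6 library 2 alone the median was 0.04, with 1 higher and 2 lower.

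In the (B6xCAST) F1, which has both Prdm9 alleles in the same nucleus, reads were assigned to the CAST and the B6 chromosome. The members overlapped 381 regions, of which 363 had at least 20 allele counts. Of the 363, 18 themselves came within 1 kb of a transcription start or overlapped a DMC1 or HELLS peak. Openness was higher on the CAST allele at 11 (3.03%) and lower at 90 (24.8%), against 7.17% higher and 9.02% lower of all 70654 regions (edgeR quasi-likelihood test with the library as a block, adjusted p under 0.05). The median log2 fold change of CAST over B6 was −0.27, against −0.01 over all regions. DESeq2 called 6 higher and 36 lower.

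All 90 regions that were lower on CAST lay at members higher in KI by ATAC. The members higher in KI had 324 tested regions, with 90 lower (27.8%), 7 higher and a median of −0.29. The other members had 40, 1 of them shared with the first kind, with 0 lower, 4 higher and a median of 0.03. DESeq2 called 36 lower and 4 higher of the 324. Of the reads at these 324 regions the CAST allele had 40.8% in F1 ATAC library 1, 42.6% in library 2 and 38.1% in the F1 H3K9ac library, against 49.0%, 49.1% and 48.1% over all tested regions in the same 3 libraries. Both ATAC libraries had the CAST allele below 50% at most of them, 230 in library 1 and 214 in library 2. At the 40 regions of the other members the CAST share was 52.5% in both ATAC libraries and 56.9% in H3K9ac.

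The allele difference was graded, unlike the difference between KI and B6. Of the 324 regions, 227 passed in neither direction, with a median log2 fold change of −0.09. At the 90 regions lower on CAST the median was −1.53 by ATAC, and the H3K9ac log2 ratio in the single F1 library (pseudocount 1) had a median of −2.24 and was below 0 at 86. At the 227 regions called in neither direction the H3K9ac median was −0.22, below 0 at 139 and above 0 at 80. H3K9ac therefore leaned to the same allele as ATAC at nearly all regions called lower on CAST. At the 7 regions called higher on CAST the median was 1.64 by ATAC and 0.14 by H3K9ac, which was above 0 at 5 and below 0 at 2.

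**Figure D5:**
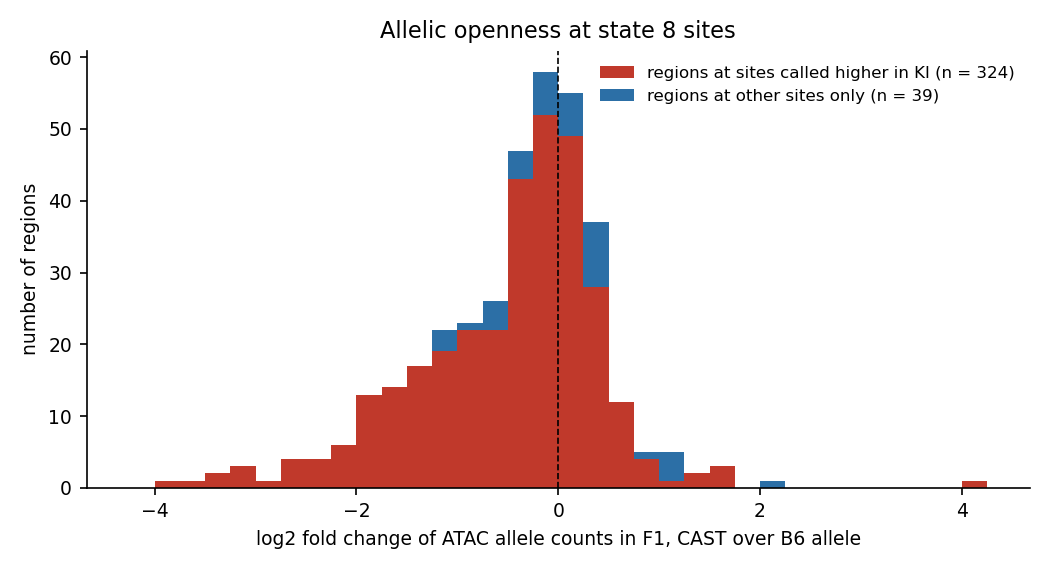
Stacked number of regions by log2 fold change of F1 ATAC allele counts, CAST over B6 allele, for the 363 tested regions at members, split into those at members called higher in KI (red, 324) and those at the other members alone (blue, 39). The red regions have a tail on the left, where the CAST allele is the less open one, with the lowest value at −3.87.

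The F1 region with the lowest p on the B6 side was that of the Sall3 site on chromosome 18. Its CAST allele had 37 and 31 ATAC counts in the F1 libraries, against 332 and 245 of the B6 allele, and H3K9ac had 15 CAST against 120 B6 counts (log2 fold change −3.05, SE 0.18, edgeR quasi-likelihood adjusted p = 3.05e-62). At the Rbfox3 intron site the CAST allele had 54 and 50 ATAC counts against 315 and 252 of the B6 allele (−2.42), and H3K9ac had 8 against 96. The Ajap1 site (−1.34), a site near Tmem179 (chr12:112527585-112531602, −1.26) and the St6galnac3 site (−1.71) were next, and the F1 region near Tmem179 itself overlapped a DMC1 or HELLS peak. At the Kcnk1 site the CAST allele had 111 and 97 counts against 328 and 258 (−1.46). Not all strong KI sites were allelic, since the Ptprn2 intron site had 169 and 139 CAST counts against 175 and 131 B6 counts (0.04).

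On the CAST side, a site 224961 bp from Tle3 (chr9:61146358-61147905) had 225 and 250 ATAC counts of the CAST allele against 13 and 16 of the B6 allele, and 95 against 13 in H3K9ac (log2 fold change 4.05, SE 0.228, adjusted p = 6.18e-68). Sites near Igsf21 (chr4:140248665-140252093, 1.71), Cdk8, a kinase gene of the Mediator complex (chr5:146334571-146337568, 1.41), Ppp2r2c, a phosphatase subunit gene (chr5:36860829-36862669, 2.19), and in an intron of Kalrn (chr16:34537717-34539331, 1.69) followed. The Igsf21 F1 region itself overlapped a DMC1 or HELLS peak, and the Ppp2r2c member was not higher in KI. H3K9ac leaned to the B6 allele at the Igsf21 region, with 8 CAST against 40 B6 counts, and to the CAST allele at the Ppp2r2c region, with 74 against 9.

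Loss of HELLS was not followed by a called change of openness at the members that could be measured. The rule had left out regions at HELLS and DMC1 peaks, and the shares over all regions are not limited in that way. In the table of Hells ATAC counts, 435 members had a region, 425 of which were members not higher in KI, and of these 435 regions 0 were higher in CKO and 0 lower, against 0.0% higher and 0.382% lower of all 95033 regions (edgeR quasi-likelihood test). At an unadjusted p under 0.05, 3 passed, and DESeq2 called 0. The median log2 fold change of CKO over wt was 0.06 (quartiles −0.09 and 0.20), with medians of 3.75, 3.58 and 3.57 CPM in the CKO libraries and 3.40 and 3.62 CPM in the wt libraries. The libraries overlapped. For the 10 regions at members higher in KI the medians were 2.27, 3.67 and 3.35 CPM in CKO and 2.43 and 3.31 CPM in wt. The other members higher in KI had no region in that table, and so no value in CKO or wt.

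H3K4me3 was measured at 58 members. Here too the rule had left out ATAC regions at promoters and at HELLS and DMC1 peaks, and the shares over all regions keep such regions in. The rule was not applied to the H3K4me3 regions. Of the 58, 8 themselves came within 1 kb of a transcription start or overlapped such a peak, including 3 of the 6 at members higher in KI. Between Hells CKO and wt, 0 of 58 regions were higher and 1 lower, against 0.0279% higher and 11.7% lower of all 78959 regions (edgeR quasi-likelihood test), and the median log2 fold change was −0.18. The 1 lower region lay at chr9:29408663-29409648 in an intron of Ntm, a cell adhesion gene. It had 0.28, 0.516 and 0.403 CPM in the CKO libraries, against 2.06 CPM in the wt library (log2 fold change −2.39, SE 0.515, adjusted p = 0.00967), and 2.02 and 1.73 CPM in Spo11/Spo11 and 2.23 CPM in Spo11/+. All 3 CKO libraries were below the other 4. Its member lies 1994 bp from the nearest protein-coding start. Between Spo11/Spo11 and Spo11/+, 0 of 58 were called in either direction, as were 0.0% of all regions, with a median of 0.01, and at an unadjusted p under 0.05 and by DESeq2 the count was 0 as well. The median levels were low, 3.0, 3.64 and 3.23 CPM in Hells CKO, 3.44 CPM in Hells wt, 2.55 and 2.58 CPM in Spo11/Spo11 and 2.43 CPM in Spo11/+.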

How the data were processed

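Tables of the authors held raw counts of reads per region for ATAC-seq, H3K9ac and H3K4me3, as deposited, and estimated counts per allele for the F1, all whole numbers in the deposited table and rounded before testing. The submitters' processing notes name CASAVA, BWA 0.7.15, Bowtie 0.12.9, MACS 1.4.2 and mm10, without roles, and the sources used here give no read filters. The deposited segmentation and peak lists were used for positions. Columns name the strain alone for KI and B6 ATAC, and 10 columns that match no sample were not used. Regions were tested over each whole table with edgeR 4.0.16 (quasi-likelihood test, TMM, filterByExpr, Benjamini-Hochberg) in R 4.3.3, with DESeq2 1.42.0 as an alternative, and the test was tried on simulated data. H3K9ac and H3K4me3 fits held all groups of their table, so a lone library borrowed the spread of the replicated groups. All 950 members passed the filter. Genes came from GENCODE M21, sequences from the NCBI GRCm38 genome, whose 21 chromosomes matched the segmentation within 200 bp, with region starts read as counted from 0. In the Hells ATAC counts, 56 duplicated regions were removed. Named sites were the 5 of highest mean ATAC level, up to 5 of lowest p per comparison and direction, and those near listed genes. The members and lists were chosen with earlier results of these data known.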

Additional observations from a re-analysis of the deposited data

How the results depend on the processing

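Under the planned and added alternatives the 349 members higher in KI by ATAC numbered 331 to 449 and the H3K9ac and F1 medians kept their sign. The cause of the following shifts was not tested. Leaving out 1 library at a time, ATAC KI against B6 gave 0 to 13 members lower and medians of 0.41 to 0.68, and ATAC Hells CKO against wt gave medians of −0.07 to 0.22. H3K9ac KI against B6 gave 0 to 358 regions higher and 0 to 9 lower over the members, and 0 to 339 higher at members higher in KI. H3K9ac Spo11/Spo11 against B6 gave 0 to 293 higher and 0 to 3 lower, and H3K4me3 Spo11/Spo11 against Spo11/+ gave medians of −0.02 to 0.05. The F1 log2 ratio of the remaining library had medians of −0.35 to −0.28 over the members and −0.39 to −0.31 at members higher in KI. With DESeq2, H3K4me3 Hells CKO against wt had 1 higher, and the F1 had 6 higher and 36 lower over the members and 4 higher and 36 lower at members higher in KI. With B6 H3K9ac library 2 alone, Spo11/Spo11 against B6 had 1 higher and 2 lower. Taking members over 2 kb from a start left 0 H3K4me3 regions lower in CKO. The H3K4me3 median for Spo11/Spo11 against Spo11/+ became 0.00 with state 8 over most of the region, 0.03 over 2 kb from a start and 0.03 with an overlap of at least 50% of the shorter region. Of the comparisons of counts and medians under alternatives, 230 stayed within 1.5 times or within the spread between libraries and 30 did not. Overlapping regions that were themselves distal were an alternative chosen after seeing the data. No paired analysis was possible because of missing replicate numbers: the labels give none, and the KI and B6 columns name the strain alone. Hells ATAC was fitted with the library number series as a block, over CKO libraries 1 and 2 and wt libraries 1 and 2, without CKO library 3, whose series holds no wt library. It called 0 members and had a median of 0.07. RLE size factors put the median of all H3K4me3 regions for Hells CKO against wt at 0.09, against −0.02 with TMM, and that of the members at −0.06, against −0.18.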
